A study of Gallus gallus with 66 samples.

Results

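Solute carriers are the large superfamily of membrane proteins that move sugars, amino acids, ions, vitamins and other small molecules across membranes, and they are numbered by family and member. Some families run down a gradient, some are driven by sodium, chloride or protons, and some exchange a molecule inside for another outside. In fat tissue they are known for moving glucose, amino acids, lactate, carnitine and zinc. Transcripts for 90 of them were followed here in chicken preadipocytes, the precursors of fat cells.

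The 90 carriers were chosen as the genes on an Affymetrix chicken array with a symbol of the solute carrier pattern whose brightest probe set had a mean above 5 on the log2 scale over all 66 arrays. The mitochondrial SLC25 family, SLC2A1 and SLC2A14 were set aside. Of 249 solute carrier genes on the array 214 were in scope, and the 90 stand against 13009 named genes in all. Levels chose the members: just inside the limit lay SLC16A13 at a mean of 5.179, SLC44A3 at 5.163, SLC38A3 at 5.13 and SLC29A1 at 5.121, and just outside it SLC38A6 at 4.96, SLC12A5 and SLC7A1 at 4.945 and SLC13A5 at 4.922. All 90 passed the filter on low values. By the substrate of the family, 33 carry ions, 19 amino acids, 11 sugars and 27 other molecules. Classes were assigned by hand, and single genes were classed apart from their family: SLC6A8, SLC43A3, SLC17A5 and SLC17A9 as other and SLC16A10 as amino acid. Most families sit in the plasma membrane or in vesicles, but the rule also took in carriers of the Golgi and the endoplasmic reticulum, such as SLC35A1 and SLC35A3 for nucleotide sugars, so the set is wider than those membranes. A carrier that was high in uncultured cells and low afterwards is less likely to be among the 90, since 6 of the 66 arrays held uncultured cells.

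The cells came from abdominal fat of 2 chicken lines, called lean and fat, with 15 males aged 10 days pooled per line. No further pool of either line is recorded. Each line gave 11 groups of 3 arrays, 22 groups in all. One group of each line was never cultured. Passaged cultures were taken when 50% confluent (-12 h), when 95% confluent (0 h), and 12, 24, 72 and 120 h after that, either with 160 µg/ml oleate, the monounsaturated fatty acid, or without it (control). The groups carry no genetic change or other agent in the labels beyond the line and oleate. The labels call the 3 arrays biological replicates and do not say whether pools, dishes or days differed, so every p-value measures the spread between these arrays and not between birds.

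The arrays agreed closely. Levels correlated between arrays of 1 group at a median r of 0.965 (0.939 to 0.974) and between arrays of different groups at a median of 0.948. The label preadipocyte was checked against 14 stromal markers, of which 11 passed the filter: the means per array of these 11 ran from 10.62 to 11.06 in uncultured cells and from 9.10 to 9.69 at 0 h, and in lean cells at 0 h the collagen gene COL1A1 stood at 13.27 and the decorin gene DCN at 12.73. CD34, a marker of fat-tissue progenitors, stood at 11.16 in uncultured lean cells and at 3.42 in lean cells at 0 h. The arrays carry 2 styles of name, 1 on the control arrays of 12 to 120 h and the fat -12 h arrays, the other on nearly all the rest (1 array, fat oleate 120 h replicate 3, carries neither). Oleate and control arrays thus also differ in name style throughout, and the 2 cannot be told apart. The other comparisons of single carriers below stay within a style, apart from that 1 array, which is part of the oleate comparisons. The difference between lines in the step from -12 to 0 h crosses styles. Without that array 15 carriers in place of 18 were called for time in oleate, and 15 in place of 13 for line in oleate. In bulk samples such as these, fewer cells of a type and less RNA per cell cannot be told apart.

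**Figure D1:**
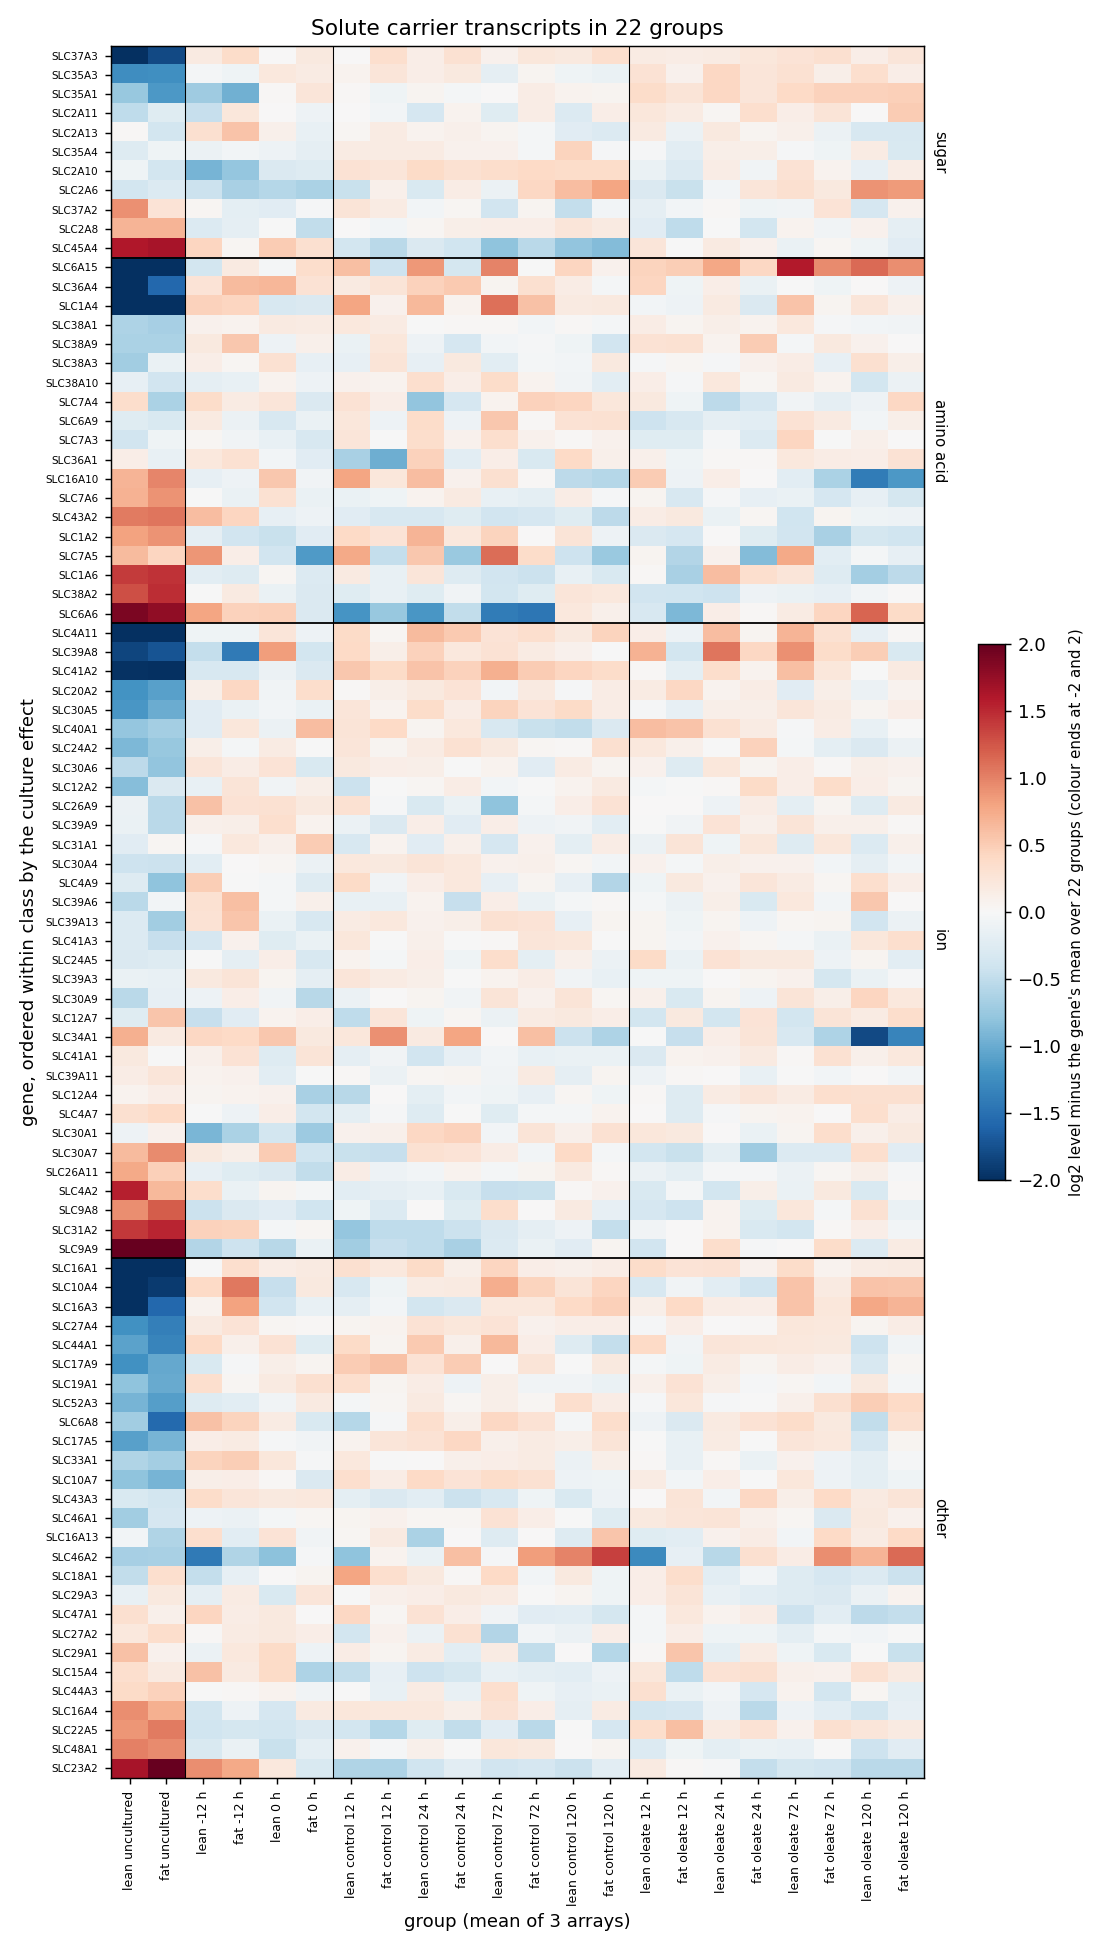
Each row is 1 of the 90 carriers and each column 1 of the 22 groups (mean of 3 arrays), coloured by the log2 level minus that carrier's own mean over the groups, with rows sorted within substrate class by the change between uncultured cells and 0 h. The sharpest step lies between the 2 uncultured columns at the left and all cultures.

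Differences below are log2 differences ± the standard error of the fit (SE), and a member is called at a Benjamini-Hochberg adjusted p under 0.05 over 22060 probe sets. Over the 22 groups, 77 of the 90 carriers (85.6%) differed in some way, and 82.2% of all probe sets did. The 13 not called included SLC29A1 (nucleosides), SLC7A4 and SLC38A3. Levels of different carriers are not set against each other, since each comes from its own probe set.

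The largest change was the move from fat tissue to culture. Between uncultured cells and confluent cultures at 0 h, averaged over the lines, 36 carriers rose and 26 fell, 62 of 90 (68.9%), the same share as among all probe sets (68.9%). By direction, 40.8% of all probe sets rose and 28.1% fell, and the median difference was 0.17 over the 90 and 0.18 over all probe sets. In 60 of the 62 the sign was the same in both lines, and 19 rose and 15 fell at least 2-fold. Shares over all probe sets were not taken for the sign and 2-fold counts, which are not set against other genes. A count of 42 among the 90 had no overlap between the 6 uncultured and the 6 cultured arrays, against a share of 42.3% over all probe sets. By class, 6 amino acid carriers rose and 7 fell of 19, 13 ion carriers rose and 10 fell of 33, 3 sugar carriers rose and 3 fell of 11, and 14 of the other carriers rose and 6 fell of 27.

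The amino acid carriers moved in both directions. SLC6A15, a sodium-coupled carrier of branched-chain amino acids and proline, was at 1.61, 1.73 and 2.49 in uncultured lean cells, with 1.61, 2.28 and 1.61 in uncultured fat cells. At 0 h it was at 6.45, 6.05 and 6.63 in lean cells and at 7.49, 6.69 and 6.12 in fat cells. Every cultured array lay far above every uncultured array, and 3 of the uncultured arrays lay at the floor of 1.61 set on low values. The difference was 4.68 ± 0.27 (adjusted p = 5.26e-21), and it was 5.42 without the floor, so its size rests on low values. SLC36A4 belongs to the SLC36 family and carries amino acids such as proline and tryptophan. It was at 3.02, 3.90 and 3.71 (lean) and 4.40, 4.88 and 3.72 (fat) uncultured. At 0 h it was at 6.98, 6.06 and 6.64 (lean) and 6.41, 6.60 and 5.54 (fat). The groups did not overlap in either line, and the difference was 2.43 ± 0.20 (adjusted p = 9.19e-16). SLC1A4, an exchanger of alanine, serine and cysteine, rose by 2.00 ± 0.19 (adjusted p = 6.27e-13).

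SLC38A2, the sodium-coupled neutral amino acid carrier that is known to be induced by amino acid shortage, went the other way. It was at 11.75, 11.75 and 11.62 in uncultured lean cells and 11.89, 11.85 and 11.93 in uncultured fat cells, and at 10.37, 10.25 and 10.23 and 10.08, 10.08 and 10.24 at 0 h. The 4 groups were tight, the lines did not separate by much and the uncultured arrays lay clear above the cultured ones, with a difference of -1.59 ± 0.12 (adjusted p = 3.35e-17). SLC6A6, the taurine carrier, was at 8.37, 8.43 and 8.98 (lean) and 8.35, 8.49 and 8.60 (fat) uncultured, and at 6.90, 7.45 and 7.21 (lean) and 6.41, 5.95 and 6.90 (fat) at 0 h. All 6 cultured arrays were below all 6 uncultured ones, and the difference was -1.73 ± 0.31 (adjusted p = 3.23e-06). SLC7A5, the light chain of the exchanger of large neutral amino acids such as leucine, fell by 1.29 ± 0.28 (adjusted p = 7.86e-05). SLC1A6, a glutamate carrier, differed by -1.54 ± 0.41 (adjusted p = 0.000874), with 1 fat array at 0 h (8.65) inside the uncultured range.

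Among the ion carriers, SLC9A9, a sodium and proton exchanger of endosomes, fell most. It was at 7.99, 8.10 and 7.83 in uncultured lean cells and 7.94, 7.76 and 8.34 in uncultured fat cells, and at 5.66, 5.41 and 4.73 and 5.37, 5.30 and 6.38 at 0 h. No cultured array reached the uncultured range, and the difference was -2.52 ± 0.24 (adjusted p = 3.96e-13), 5.73-fold lower. Its relative SLC9A8, of the Golgi, fell as well, by 1.39 ± 0.11 (adjusted p = 2.59e-16). SLC31A2, a copper carrier of intracellular membranes, was at 8.67, 7.84 and 8.49 (lean) and 8.22, 8.28 and 8.82 (fat) before and 7.41, 6.82 and 6.44 (lean) and 7.06, 7.02 and 6.79 (fat) after. The ranges did not overlap, and the difference was -1.46 ± 0.22 (adjusted p = 5.02e-08).

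The zinc importer SLC39A8 rose. In uncultured cells it was at 5.17, 4.98 and 5.86 (lean) and 5.38, 5.73 and 5.28 (fat), and at 0 h it was at 7.93, 7.71 and 8.43 and 6.51, 6.95 and 6.96. All 0 h arrays were above all uncultured arrays, and the lean ones were the higher, with a difference of 2.02 ± 0.24 (adjusted p = 2.15e-10) over both lines. SLC41A2, a magnesium carrier, rose by 1.87 ± 0.14 (adjusted p = 2.43e-17) and SLC4A11, an ion carrier of the bicarbonate family, by 2.24 ± 0.29 (adjusted p = 1.71e-09). For SLC4A11 the uncultured arrays ran widely, 4.72, 3.99 and 2.26 (lean) and 1.61, 4.27 and 4.29 (fat), with 1 at the floor. SLC20A2, a sodium-driven phosphate carrier, rose by 1.29 ± 0.10, and SLC40A1, the iron exporter ferroportin, by 0.97 ± 0.20. Within the zinc families, 3 of the 6 exporters of SLC30 rose and 2 fell, while 2 of the 6 importers of SLC39 rose and 1 fell.

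Both lactate carriers known as MCT1 and MCT4 rose, as did SLC37A3 and a pair of nucleotide sugar carriers. SLC16A1, the lactate and pyruvate carrier (MCT1), was at 7.50, 7.11 and 6.24 (lean) and 7.70, 6.85 and 7.06 (fat) uncultured and at 9.09, 9.69 and 9.37 (lean) and 9.57, 9.65 and 9.0 (fat) at 0 h. The gap between the highest uncultured array and the lowest cultured one was clear, and the difference was 2.32 ± 0.14 (adjusted p = 9.51e-20), a 4.98-fold rise. SLC16A3, the lactate exporter (MCT4), rose by 1.64 ± 0.24 (adjusted p = 6.75e-08), although the highest uncultured lean array (8.33) passed the lowest cultured array (8.29). SLC27A4, a fatty acid transport protein, rose by 1.32 ± 0.10. SLC37A3, a member of the sugar phosphate carrier family, was at 6.33, 6.78 and 6.77 (lean) and 7.11, 6.95 and 7.15 (fat) uncultured and at 8.96, 8.70 and 8.95 (lean) and 9.11, 9.02 and 9.05 (fat) at 0 h. The arrays of each group lay close together and the conditions did not overlap, with a rise of 2.12 ± 0.10 (adjusted p = 4.37e-24). SLC35A1, which brings CMP-sialic acid into the Golgi, rose by 1.09 ± 0.11, SLC35A3, which brings in UDP-N-acetylglucosamine, by 1.42 ± 0.11, and SLC10A4, of the bile acid carrier family, by 1.82 ± 0.24.

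The carriers of ascorbate, carnitine and heme fell. SLC23A2, the ascorbate carrier, was at 9.34, 8.94 and 8.82 (lean) and 9.53, 9.36 and 9.30 (fat) uncultured and at 7.82, 7.89 and 7.03 (lean) and 7.37, 6.62 and 7.23 (fat) at 0 h. The groups did not overlap, and the difference was -1.89 ± 0.24 (adjusted p = 1.96e-09). SLC22A5, the sodium-coupled carnitine carrier OCTN2 that supplies carnitine for fatty acid oxidation, was at 10.44, 10.15 and 11.06 (lean) and 10.58, 10.95 and 10.59 (fat) and then at 9.35, 9.20 and 9.35 (lean) and 9.21, 9.22 and 9.72 (fat). All cultured arrays were below all uncultured ones, and it fell by 1.29 ± 0.12 (adjusted p = 3.2e-13). SLC48A1, a heme carrier, differed by -1.30 ± 0.13, while SLC19A1, of the folate and thiamine family, rose by 1.16 ± 0.10. Of the sugar carriers, SLC45A4 differed by -1.21 ± 0.20, SLC2A8, a hexose carrier held inside the cell, by -0.92 ± 0.09, and SLC37A2, a sugar phosphate carrier, by -0.72 ± 0.14. SLC2A8 was the 1 carrier called of the 5 facilitated hexose carriers among the 90, which leave out SLC2A1 and SLC2A14. SLC2A6 was not called (-0.28 ± 0.23 (adjusted p = 0.265)).

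**Figure D2:**
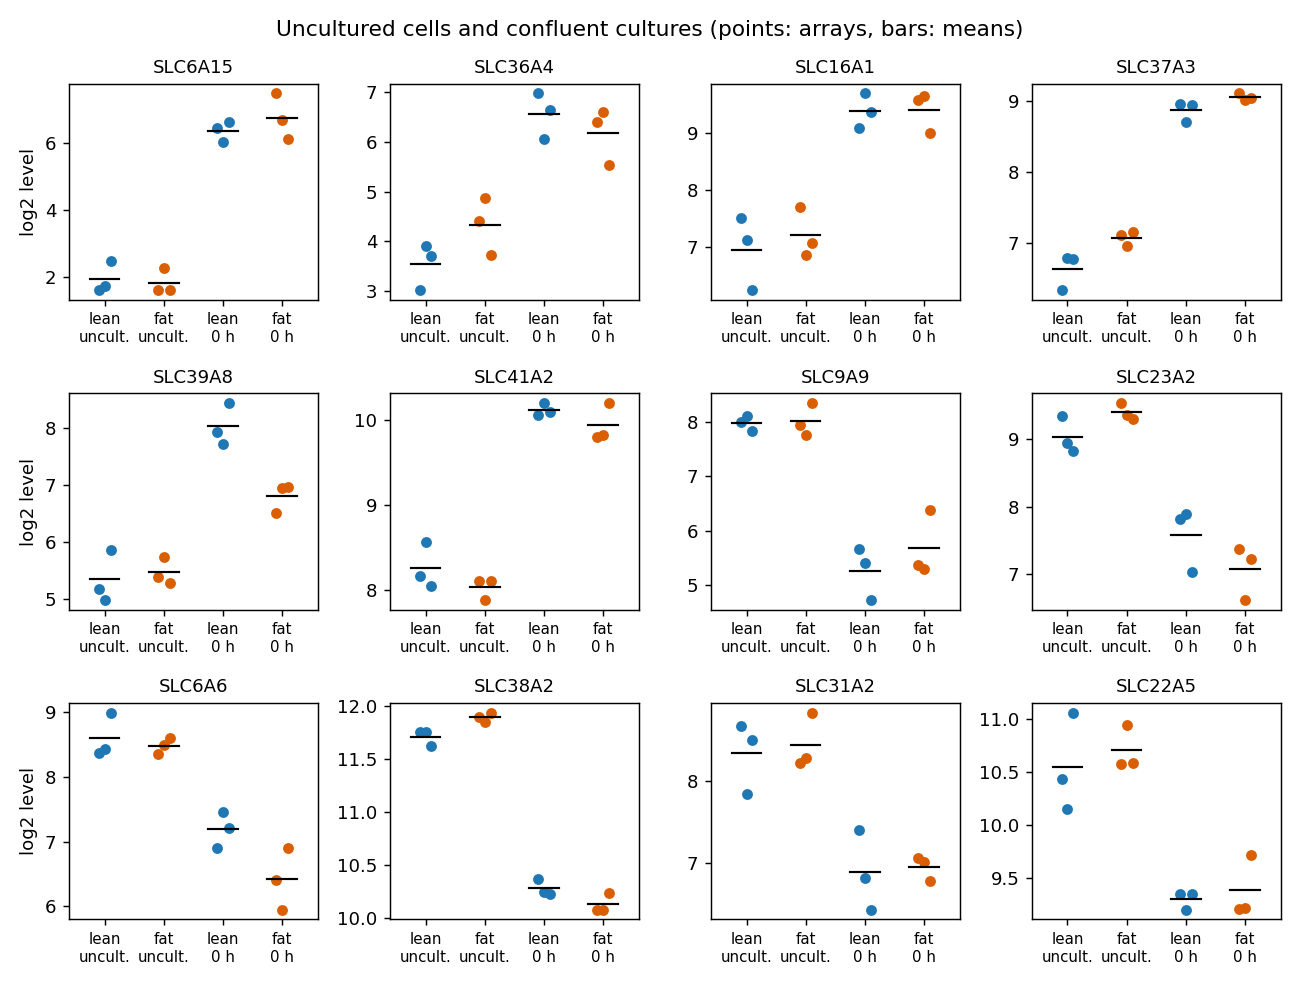
Each panel shows 1 carrier on the log2 scale in uncultured cells (uncult.) and cultures at 0 h, with lean arrays in blue, fat arrays in orange and a bar at the mean of 3 arrays. The 2 conditions separate in all 12 panels, upwards for SLC6A15 to SLC41A2 and downwards for SLC9A9 to SLC22A5.

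Markers of other cell types moved with this comparison. The mean over 10 of 11 listed macrophage and myeloid genes was 10.33 to 11.07 on the 6 uncultured arrays and 7.87 to 9.20 on the 6 arrays at 0 h, and 8 of the 10 fell. All 6 endothelial genes fell (6.91 to 8.18 before, 4.41 to 5.14 after), as did all 3 tested erythroid genes of 7 (7.18 to 9.53 before, 1.67 to 2.66 after) and 2 of 4 tested lymphocyte genes of 5 (6.42 to 7.62 before, 2.91 to 3.66 after). Of 11 stromal genes 9 fell, and 4 of 7 adipocyte genes did (list means 7.54 to 8.12 before, 5.82 to 6.53 after). Smooth muscle genes went up, from 5.17 to 6.67 before to 7.93 to 8.67 after as the mean over 3 of 4 listed, with ACTA2 higher by 4.48 and TAGLN by 3.86 while MYH11 differed by -1.11. None of these markers was at the floor on every array of either condition. At 0 h, though, the erythroid gene HBA1 averaged 1.64 (lean) and 1.63 (fat), close to the floor of 1.61. The erythroid gene SLC4A1 was at the floor on every fat array at 0 h. The size of the erythroid fall thus rests on low values. The part of these cells in the carriers' changes was not tested. Of 30 other transport genes tested, 8 rose and 18 fell. The 35 listed were pumps, partner chains, regulators and others such as TFRC, MT4 and CA2. They also held the 2 hexose carriers set aside above: SLC2A14 rose by 0.94, and SLC2A1 was not called (-0.07). BSG, the chain that brings MCT1 and MCT4 to the membrane, rose by 0.96, while EMB, another partner chain listed, differed by -3.68. ATP1B1, a chain of the sodium pump, fell by 3.59.

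From 50% to 95% confluence, within the lean line, 2 carriers were called of 90 against 1.90% of all probe sets. SLC35A1 was at 7.90, 8.03 and 7.63 at -12 h and at 8.53, 8.63 and 8.62 at 0 h, without overlap, and rose by 0.74 ± 0.16 (adjusted p = 0.0061). SLC39A8 was at 6.12, 6.45 and 7.54 and then at 7.93, 7.71 and 8.43, again without overlap. Its rise of 1.32 ± 0.34 (adjusted p = 0.0251) was not called in 4 of the 6 fits that left out 1 array (adjusted p up to 0.198). Fitted on these groups alone, neither was called. With the replicate number as a block per culture series, and with the series as a random block, SLC43A2 was called as well. A series in the random block is the arrays of 1 line, 1 replicate number and 1 name style. The labels name no such series. The fat line's -12 h and 0 h arrays differ in name style and were not compared here for single carriers.

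Over time in culture a smaller group changed. Between 12 and 120 h in control culture, averaged over the lines, 5 carriers rose and 8 fell, 13 of 90 (14.4%) against 9.36% of all probe sets (4.48% higher, 4.88% lower). In oleate culture 11 rose and 7 fell, 18 of 90 (20.0%) against 13.3% (6.36% higher, 6.92% lower). The 2 comparisons rest on different arrays. The 8 carriers called in both, 61.5% of the control calls and 44.4% of the oleate calls, had the same sign in both: SLC46A2, SLC6A6, SLC2A6 and SLC38A2 were higher at 120 h, and SLC16A10, SLC40A1, SLC18A1 and SLC2A13 lower. Shares over all probe sets were not taken for calls in both media or their signs, so these are not set against other genes. Leaving out 1 array lost SLC2A13 in 6 of 12 fits in each medium (adjusted p up to 0.145 in control and 0.211 in oleate) and SLC18A1 in 8 of 12 in control (up to 0.124). The oleate count was 6 when the compared groups were fitted alone and 28 with array weights. The control count rests on single arrays: it was 6 without lean control 12 h replicate 3 and without lean control 120 h replicate 3, 7 without lean control 120 h replicate 2, and 8 without fat control 120 h replicate 2 or replicate 3.

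SLC46A2, a member of the folate carrier family, was at 5.82, 5.58 and 6.07 in lean control cultures at 12 h and at 6.68, 8.27 and 7.95 at 120 h. The fat control cultures went from 6.58, 6.65 and 6.87 to 7.44, 7.91 and 8.69. Both lines were without overlap between the times, the fat arrays starting higher, and the rise was 1.56 ± 0.28 (adjusted p = 0.000258). In oleate it went from 6.29, 4.68 and 5.11 to 7.80, 7.09 and 7.08 in lean cells and from 6.41, 5.92 and 7.10 to 8.0, 7.54 and 7.77 in fat cells. Again each line's 120 h arrays were all above its 12 h arrays, and the rise was 1.63 ± 0.28 (adjusted p = 6.77e-05).

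SLC2A6, a lysosomal member of the glucose carrier family, was at 6.92, 6.97 and 6.93 (lean) and 7.05, 7.72 and 7.67 (fat) in control culture at 12 h and at 7.50, 8.51 and 8.0 (lean) and 7.72, 8.40 and 8.38 (fat) at 120 h. The lean times did not overlap and the fat times shared a value of 7.72, with a rise of 0.88 ± 0.23 (adjusted p = 0.00899). In oleate it was at 7.58, 6.83 and 6.90 (lean) and 6.61, 6.37 and 7.85 (fat), then at 8.23, 8.11 and 8.54 (lean) and 7.75, 8.12 and 8.81 (fat). Lean arrays did not overlap, fat arrays did, and the rise was 1.24 ± 0.23 (adjusted p = 0.00015). Lysosomes also hold SLC36A1, a proton-coupled amino acid carrier that works with the growth sensor mTORC1. It was at 5.15, 4.18 and 4.41 (lean) and 4.45, 3.48 and 4.82 (fat) in control culture at 12 h and at 5.75, 5.76 and 5.40 (lean) and 4.84, 5.40 and 5.74 (fat) at 120 h. Every array at 120 h was above every array at 12 h of its own line, and the rise was 1.07 ± 0.21 (adjusted p = 0.000595), against 0.20 ± 0.21 (adjusted p = 0.586) in oleate; the difference between these 2 was -0.87 ± 0.29 (adjusted p = 0.31).

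The taurine carrier SLC6A6, which had fallen on culture, was at 5.75, 5.44 and 5.41 (lean) and 5.82, 5.89 and 6.15 (fat) in control culture at 12 h and at 6.05, 7.33 and 7.39 (lean) and 5.97, 6.98 and 7.48 (fat) at 120 h. The lean times did not overlap and 1 fat array at 120 h (5.97) lay within the 12 h range. The rise was 1.12 ± 0.31 (adjusted p = 0.0155), and it was not called without lean control 120 h replicate 2 (0.0513), replicate 3 (0.0569) or fat control 120 h replicate 3 (0.0642). In oleate it went from 6.15, 6.61 and 6.41 to 8.24, 8.11 and 7.27 (lean) and from 5.95, 5.49 and 6.03 to 7.01, 6.26 and 8.04 (fat). Every array at 120 h was above those of its line at 12 h, with a rise of 1.38 ± 0.31 (adjusted p = 0.00176). SLC38A2 rose by 0.42 ± 0.12 in control culture, a rise not called without lean control 120 h replicate 3 (adjusted p = 0.114), and by 0.36 ± 0.12 in oleate, lost in 6 of 12 such fits (adjusted p up to 0.142).

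SLC16A10, the carrier of aromatic amino acids and thyroid hormone (TAT1), fell. It was at 7.20, 7.91 and 8.23 (lean) and 7.70, 7.07 and 6.86 (fat) in control culture at 12 h and at 7.14, 5.83 and 6.46 (lean) and 7.07, 6.41 and 5.75 (fat) at 120 h. The lean times did not overlap and the fat times did, and the difference of -1.05 ± 0.33 (adjusted p = 0.0328) was lost in 7 of 12 fits that left out 1 array (adjusted p up to 0.109). In oleate the arrays at 12 h were 6.94, 7.95 and 7.58 (lean) and 6.55, 7.40 and 6.73 (fat), and those at 120 h 5.20, 6.98 and 4.59 (lean) and 5.97, 6.87 and 4.69 (fat). The 120 h arrays were scattered, replicate 2 of each line standing near the 12 h values, and the difference was -1.48 ± 0.33 (adjusted p = 0.00159).

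Ferroportin, SLC40A1, was at 6.03, 5.78 and 5.27 (lean) and 5.71, 5.72 and 6.11 (fat) in control culture at 12 h and at 4.70, 5.20 and 4.91 (lean) and 4.97, 4.92 and 5.56 (fat) at 120 h. All 120 h arrays of a line were below its 12 h arrays, with a difference of -0.73 ± 0.20 (adjusted p = 0.0147). In oleate the difference was -0.67 ± 0.20 (adjusted p = 0.0192), and it was not called without fat oleate 12 h replicate 2 (0.0506), lean oleate 120 h replicate 2 (0.126) or fat oleate 120 h replicate 2 (0.0644). SLC34A1, a sodium-driven phosphate carrier best known from kidney, differed by -1.34 ± 0.44 (adjusted p = 0.0361) in oleate, with 120 h arrays at 4.79, 3.89 and 5.27 (lean) and 5.63, 3.26 and 6.49 (fat) and with the call lost in 7 of 12 such fits (adjusted p up to 0.176). SLC10A4 rose by 0.76 ± 0.24 (adjusted p = 0.0255) in oleate, lost in 5 of 12 such fits (adjusted p up to 0.0798). It was the one carrier whose 6 arrays at 12 h and 6 at 120 h did not overlap there, against 3.18% of all probe sets. In control culture SLC37A2 and SLC2A8 (named after its values were seen) had no overlap between the 6 arrays at each time, against 2.96% of all probe sets, and SLC37A2 fell by 0.49 ± 0.14, not called without lean control 12 h replicate 3 (0.0669).

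Macrophage and myeloid genes averaged 5.41 to 7.56 at 12 h and 4.85 to 8.56 at 120 h in control culture, where 1 of 10 rose and 1 fell, and 7.04 to 8.81 at 12 h and 5.57 to 8.17 at 120 h in oleate, where 3 of 10 fell. Of the other cell lists, CD34 (-1.39) and MYH11 (-1.60) fell in control culture. In oleate MYH11 (-2.28), FABP4 (-2.31) and PPARG (-0.52) fell, and LUM (0.58), DCN (0.23) and CD3E (1.51) rose. CD3E averaged 1.83 (lean) and 1.61 (fat) in oleate at 12 h, near or at the floor of 1.61, so the size of its rise rests on low values. The part of these cells in the changes with time was not tested. Of the 30 other transport genes 2 rose and 1 fell with time in control culture, and 5 rose and 2 fell in oleate.

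**Figure D3:**
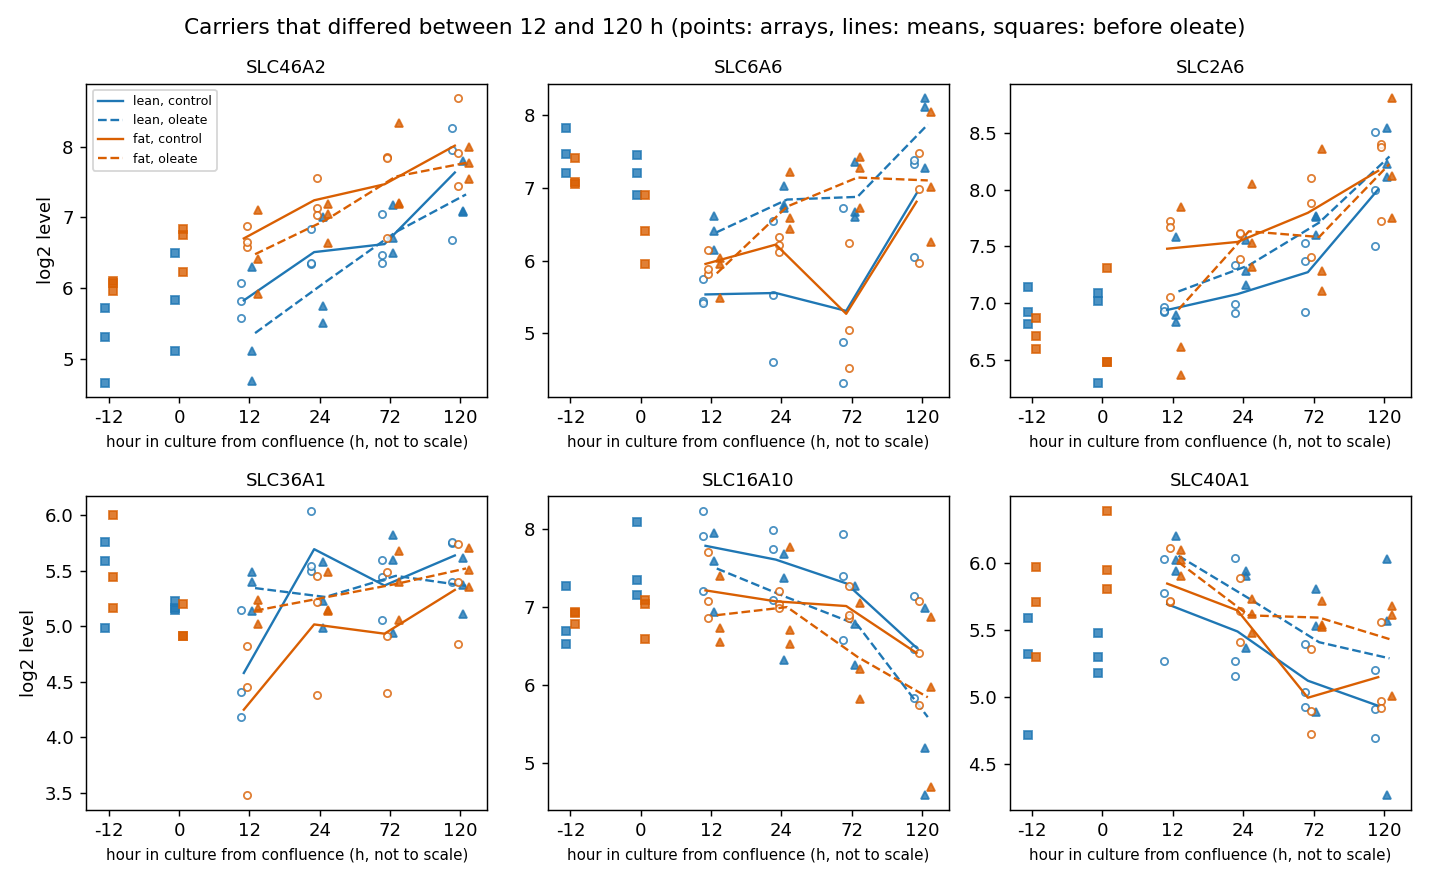
Each panel shows 1 carrier on the log2 scale at -12 and 0 h (squares) and at 12, 24, 72 and 120 h in control culture (open circles, solid lines) and oleate (filled triangles, dashed lines), lean in blue and fat in orange. SLC46A2, SLC6A6 and SLC2A6 end higher than at 12 h in both media, SLC16A10 and SLC40A1 lower, and SLC36A1 rises in control culture.

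During the first 12 h with oleate, measured against 0 h within 1 name style, 2 of 90 carriers were called (0.549% of all probe sets), both higher. This comparison holds time as well as oleate. SLC22A5, the carnitine carrier, was at 9.35, 9.20 and 9.35 (lean) and 9.21, 9.22 and 9.72 (fat) at 0 h and at 10.07, 9.86 and 10.13 (lean) and 10.10, 10.32 and 10.36 (fat) after 12 h of oleate. Every oleate array was above every 0 h array, and the rise of 0.80 ± 0.12 (adjusted p = 0.000135), 1.74-fold, was called in each of the 12 fits that left out 1 array. SLC30A1, the zinc exporter of the plasma membrane, was at 7.48, 6.47 and 6.89 (lean) and 7.14, 6.55 and 6.07 (fat) and then at 7.75, 7.30 and 7.57 (lean) and 7.51, 7.32 and 7.72 (fat). The highest lean array at 0 h (7.48) passed the lowest lean oleate array (7.30), the fat arrays did not overlap, and the rise of 0.76 ± 0.19 (adjusted p = 0.0363) was lost in 8 of those 12 fits (adjusted p up to 0.142). In control culture at 12 h, which carries the other name style, SLC30A1 averaged 7.41 (lean) and 7.42 (fat). Its oleate means at 12 h were close to these, 7.54 (lean) and 7.52 (fat). Averaged over lines and hours, SLC30A1 was not called between oleate and control cultures, which differ in name style as well. The part of oleate in its rise, apart from time, was not tested within 1 name style. Of the 30 other transport genes 1 was called, also higher, MT4 at 2.66.

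Averaged over both lines and the 4 hours, oleate and control cultures differed in 38 of 90 carriers (42.2%), 19 higher and 19 lower, against 35.0% of all probe sets (17.4% higher and 17.6% lower). The median difference was -0.02 over the carriers and over all probe sets. No called difference reached 2-fold, and 18 of the 38 kept 1 sign across the 8 combinations of line and hour. These counts too lack a share over all probe sets. No carrier had its 24 oleate arrays wholly apart from its 24 control arrays, whereas 0.322% of all probe sets did. Since oleate and name style cannot be told apart, these are differences between the 2 sets of arrays. A shift between name styles was estimated as the fat minus lean difference in the step from -12 to 0 h, where the fat line alone crosses styles, so a difference between lines enters it as well. With this shift taken off, 1 carrier was called (0.703% of all probe sets), SLC12A4, a potassium and chloride carrier, at 1.03 ± 0.21 (adjusted p = 0.0116), and it was not called without lean -12 h replicate 2 (0.0502). Before the shift was taken off, its oleate difference was 0.30 ± 0.05. The rest of the 1.03 is the shift itself, -0.73 ± 0.21, taken off. At 0 h, within 1 style, its fat and lean arrays differed by -0.73 ± 0.14 (adjusted p = 0.000714), and at -12 h, across styles, their means were 7.24 (fat) and 7.23 (lean).

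SLC22A5 ran from 8.95 over a median of 9.27 to 9.79 on the 24 control arrays and from 9.50 over 9.91 to 10.36 on the 24 oleate arrays. The ranges overlap between 9.50 and 9.79, and the difference was 0.63 ± 0.06 (adjusted p = 4.82e-12). It was 0.43 ± 0.09 in lean and 0.83 ± 0.09 in fat cells, and the difference between lines was 0.40 ± 0.12 (adjusted p = 0.0785). A second probe set of the gene gave 0.53. At 12 h it was 0.73 ± 0.17 (lean) and 1.17 ± 0.17 (fat), and at 120 h 0.26 ± 0.17 (lean) and 0.52 ± 0.17 (fat), a change with time of -0.56 ± 0.17 (adjusted p = 0.237).

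SLC6A6 had the largest difference, 0.90 ± 0.16 (adjusted p = 7.67e-06), with lowest, median and highest values of 4.32, 6.01 and 7.48 in control and 5.49, 6.72 and 8.24 in oleate. The ranges overlap broadly, the value was below 0 in fat cells at 12 h (-0.13 ± 0.44) and the gap was widest at 72 h (1.57 ± 0.44 lean, 1.87 ± 0.44 fat). SLC43A3, a carrier of purine bases known also to affect fatty acid flux in fat cells of mice, had 6.65, 6.94 and 7.28 in control and 7.11, 7.42 and 7.66 in oleate. The ranges shared the values from 7.11 to 7.28, and it was higher by 0.44 ± 0.06 (adjusted p = 3.48e-08). SLC45A4, of the sugar carrier family SLC45, had 4.16, 4.88 and 5.66 and 4.89, 5.52 and 6.06, and was higher by 0.59 ± 0.10 (adjusted p = 4.3e-06). SLC35A1 was higher by 0.35 ± 0.06 (adjusted p = 9.54e-07), and SLC16A3 by 0.33 ± 0.12 (adjusted p = 0.0288), not called without fat control 72 h replicate 1 (0.0562). SLC38A9, the lysosomal arginine sensor, was higher by 0.29 ± 0.08, SLC2A11 by 0.28 ± 0.09 and the zinc carrier SLC39A9 by 0.19 ± 0.05.

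Lower in oleate were carriers of several substrates. SLC1A2, a glutamate carrier, had lowest, median and highest values of 4.77, 5.66 and 6.98 in control and 4.26, 5.17 and 5.78 in oleate. The oleate arrays reached lower and not as high, and the difference was -0.60 ± 0.13 (adjusted p = 0.000158). SLC34A1 differed by -0.72 ± 0.22 (adjusted p = 0.00879), SLC16A10 by -0.47 ± 0.16 (adjusted p = 0.0207) and SLC16A4, of the monocarboxylate carrier family, by -0.42 ± 0.10 (adjusted p = 0.000406). SLC41A2 differed by -0.34 ± 0.07, SLC48A1 by -0.26 ± 0.07, SLC39A13, a zinc carrier of the Golgi, by -0.19 ± 0.06, and the hexose carriers SLC2A10 and SLC2A8 by -0.34 ± 0.09 and -0.25 ± 0.05. For SLC1A4 the 2 probe sets disagreed, the brighter at -0.37 and the other at 0.74, and for SLC7A6 as well probe sets were called in opposite directions. Neither gene's direction in oleate is given.

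The size of the oleate difference changed with time for none of the 90 carriers after limma's adjustment (9 at an unadjusted p under 0.05, and 0.304% of all probe sets called), and it differed between lines for none (13 unadjusted, 1.85% of all probe sets called). The shares of all probe sets are after adjustment, and none was taken for the unadjusted counts. Of 10 tested macrophage and myeloid genes 9 were higher in oleate, with array means of 5.57 to 8.97 in oleate and 4.85 to 8.56 in control, and of 11 stromal genes 2 were higher and 9 lower. Of 7 adipocyte genes FABP4 was higher (1.58) and PPARG lower (-0.26). PECAM1 of the 6 endothelial genes was higher (1.06), and ACTA2 of the 3 smooth muscle genes was lower (-0.62). The part of these cells in the carriers' differences was not tested. Of the 30 other transport genes 10 were higher, SLC2A14 among them (0.32), and 1, CHAC1 at -0.93, was lower.

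**Figure D4:**
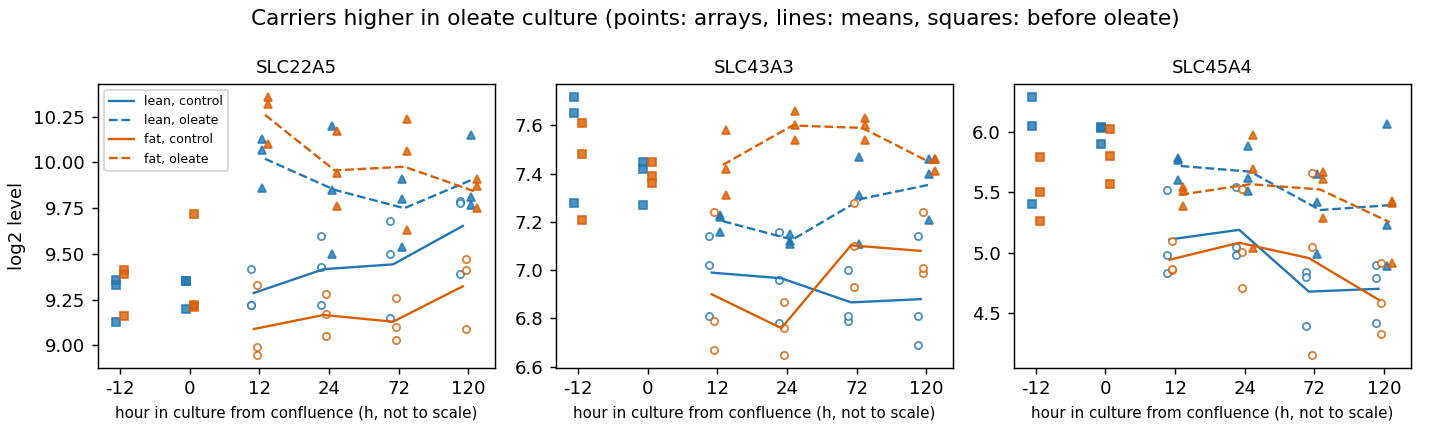
Each panel shows 1 carrier on the log2 scale at -12 and 0 h (squares) and from 12 to 120 h in control culture (open circles, solid lines) and oleate (filled triangles, dashed lines), lean in blue and fat in orange. The dashed lines lie above the solid line of the same colour at each hour for SLC22A5, SLC43A3 and SLC45A4.

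The fat and the lean line were compared before culture, at confluence and over the cultures, where 12 arrays a line in place of 3 enter each comparison and the counts are not set against those of 3. Fat minus lean, 3 carriers were called in uncultured cells (2.85% of all probe sets), 9 at 0 h (8.08%), 17 in control culture (5 higher and 12 lower in fat, 18.9% against 16.1% of all probe sets, of which 7.75% higher and 8.30% lower) and 13 in oleate (6 higher and 7 lower, 14.4% against 15.3%, of which 7.53% higher and 7.75% lower). With a random block by line, replicate number and name style the 2 culture counts became 7 (8.73% of all probe sets) and 7 (9.47%). Without lean control 72 h replicate 3 the control count was 10, and without lean control 120 h replicate 1 it was 9. At no single hour of control culture was a carrier called by limma (5 to 11 at an unadjusted p under 0.05, with 0.612%, 0.267%, 1.16% and 1.46% of all probe sets called at 12, 24, 72 and 120 h). In oleate SLC31A1 alone was called, at 72 h (7 to 12 carriers at an unadjusted p under 0.05, with 2.08%, 0.295%, 1.21% and 0.494% of all probe sets called at those hours). The shares at single hours are after adjustment, and none was taken for the unadjusted counts. The change from uncultured cells to 0 h differed between lines for 2 carriers (3.63% of all probe sets), and the change from -12 to 0 h, where name style also differs, for 2 (2.71%). No further pool of birds is recorded for either line, so line and pool cannot be told apart. The 4 called in both media, 23.5% of the control calls and 30.8% of the oleate calls, were SLC31A1, SLC46A2, SLC7A5 and SLC9A8, each with the same sign in both. For these too, shares over all probe sets were not taken.

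SLC31A1, the copper importer CTR1, had lowest, median and highest values of 8.73, 8.89 and 9.03 on the 12 lean control arrays and 9.03, 9.26 and 9.41 on the 12 fat ones. The 2 ranges touch at 9.03, and fat cells were higher by 0.37 ± 0.06 (adjusted p = 1.33e-05). In oleate the values were 8.55, 8.98 and 9.26 (lean) and 9.13, 9.40 and 9.68 (fat), with a difference of 0.38 ± 0.06 (adjusted p = 5.93e-06). At 0 h it was already 0.40 ± 0.12 (adjusted p = 0.0275), and in uncultured cells 0.26 ± 0.12 (adjusted p = 0.268). The call held with the random block in both media. Of its 6 probe sets 4 were called higher in control culture (0.28 to 1.57), 1 was called lower (-0.23) and 1 was not called (0.06). SLC9A8 went the other way, -0.27 ± 0.08 (adjusted p = 0.0105) in control and -0.27 ± 0.08 (adjusted p = 0.0107) in oleate.

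SLC7A5, the leucine exchanger, had 5.13, 7.19 and 8.11 in lean and 5.00, 5.88 and 7.25 in fat control cultures. The ranges overlap widely, with the lean median higher, and the difference was -0.90 ± 0.20 (adjusted p = 0.00132), 1.86-fold lower in fat cells. In oleate it was -0.68 ± 0.20 (adjusted p = 0.014), a call that was lost with the random block. SLC6A15 had 6.39, 7.22 and 8.09 (lean) and 5.76, 6.18 and 7.16 (fat) in control culture, lower in fat cells by 0.90 ± 0.19 (adjusted p = 0.000699), and differed by -0.29 ± 0.19 (adjusted p = 0.345) in oleate. In control culture 5 of the 19 amino acid carriers were lower in fat cells and none higher, against 8.30% lower and 7.75% higher among all probe sets. Of these, SLC1A4 and SLC36A1 were lost with the random block (adjusted p = 0.0689 and 0.107) and in 2 and 10 of 24 fits that left out 1 array. SLC46A2 was higher in fat cells, by 0.71 ± 0.20 (adjusted p = 0.00983) in control and 0.81 ± 0.20 (adjusted p = 0.00307) in oleate, and SLC27A2, a fatty acid carrier and activating enzyme, by 0.41 ± 0.10 (adjusted p = 0.0034) in control. SLC22A5 was lower by 0.27 ± 0.09 in control, lost in 5 of 24 fits that left out 1 array (adjusted p up to 0.0631) and with the random block.

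SLC39A8, the zinc importer, had 7.46, 8.03 and 8.44 in lean and 5.63, 7.30 and 7.93 in fat oleate cultures. The fat arrays spread further down, and the difference was -0.76 ± 0.17 (adjusted p = 0.00116). It was -1.22 ± 0.34 (adjusted p = 0.0165) at 0 h, where the lines did not overlap, and -0.19 ± 0.17 (adjusted p = 0.49) in control culture. SLC4A2, the chloride and bicarbonate exchanger, was at 8.20, 7.87 and 8.10 in uncultured lean cells and at 7.09, 7.34 and 7.04 in uncultured fat cells. The lean arrays were all higher, and the difference was -0.90 ± 0.18 (adjusted p = 0.00252), whereas in oleate culture it was 0.35 ± 0.09 (adjusted p = 0.00585). SLC12A7, a potassium and chloride carrier, was higher in fat cells uncultured (0.78 ± 0.23 (adjusted p = 0.0462), lost in each of 6 fits that left out 1 array, adjusted p up to 0.143) and in oleate (0.50 ± 0.11 (adjusted p = 0.0014)). Neither SLC4A2 nor SLC12A7 was called in control culture, where the 3 SLC12 members differed by 0.12 to 0.27. For none of the 90 carriers was the line difference called as unlike between control and oleate. SLC18A1, a vesicular amine carrier, differed by 0.84 ± 0.22 (adjusted p = 0.0269) in uncultured cells (not called without lean uncultured replicate 1, 0.123, replicate 2, 0.212, or fat uncultured replicate 2, 0.138). In control culture it was called the other way, at -0.34, lost in 9 of 24 fits that left out 1 array (adjusted p up to 0.0814).

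Markers also differed between lines in control culture. Of the macrophage and myeloid genes 5 of 10 were higher in fat cells, with array means of 4.87 to 8.56 in fat and 4.85 to 7.15 in lean. Of 7 adipocyte genes LPL was higher in fat cells, by 0.51, and ADIPOQ (-0.98), FABP4 (-1.33) and PPARG (-0.36) were lower, with list means of 4.72 to 6.16 in fat and 5.43 to 6.25 in lean. Among the other lists PECAM1 (0.89), IGLL1 (0.60) and PDGFRB (0.41) were higher, and CDH5 (-1.35) and MYH11 (-1.22) lower. In oleate 1 of 10 macrophage and myeloid genes was higher, with means of 5.57 to 8.65 in fat and 5.87 to 8.97 in lean. No adipocyte gene was called there, MYH11 was lower by 1.07, and of 11 stromal genes 2 were higher and 1 lower. The part of these cells in the carriers' line differences was not tested. Of the 30 other transport genes 2 were higher and 3 lower in fat control cultures, and 3 higher and 2 lower in oleate.

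**Figure D5:**
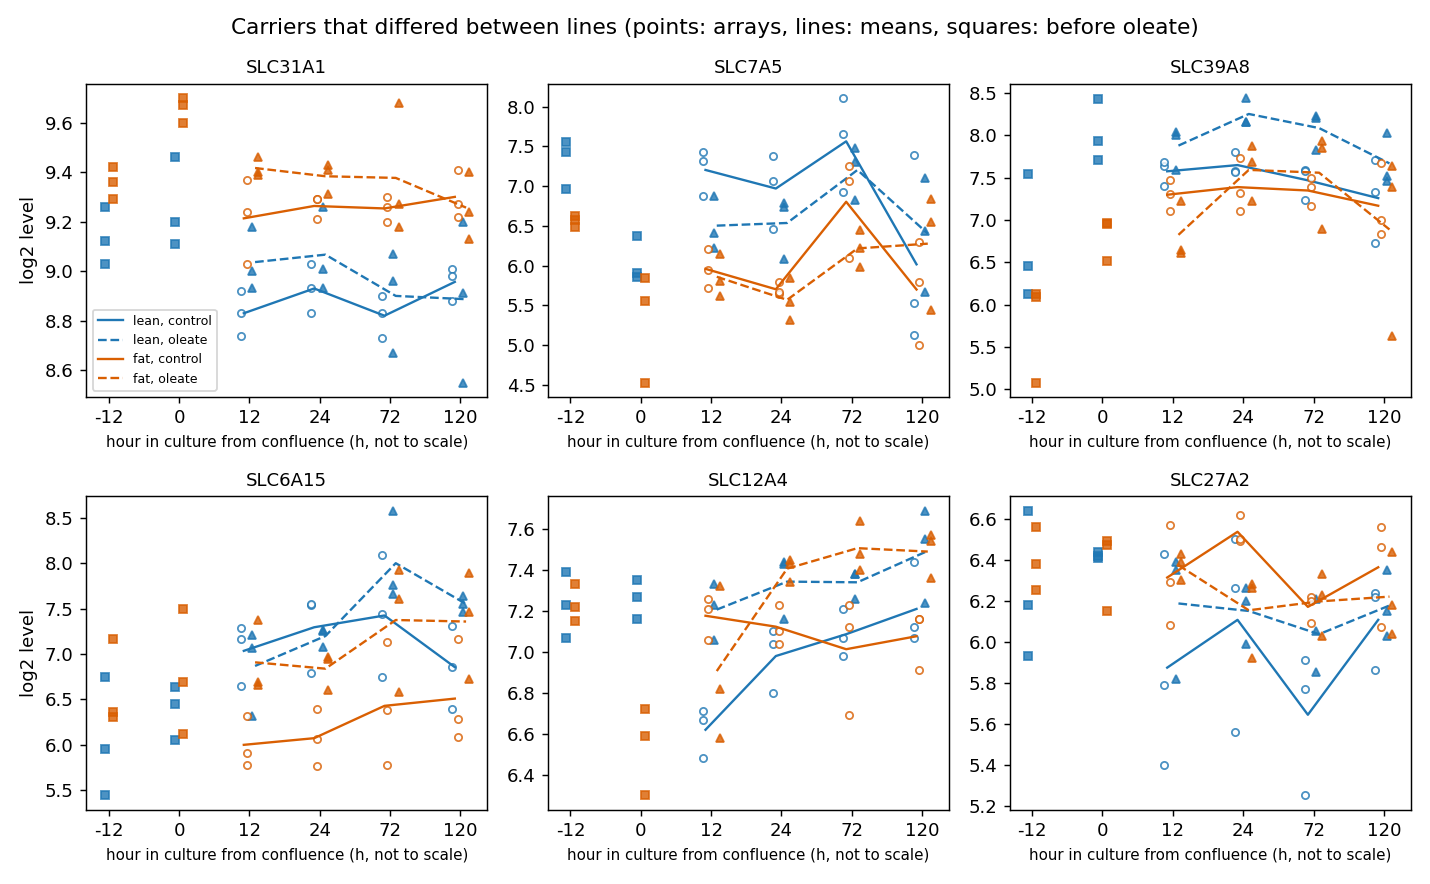
Each panel shows 1 carrier on the log2 scale at -12 and 0 h (squares) and from 12 to 120 h in control culture (open circles, solid lines) and oleate (filled triangles, dashed lines), lean in blue and fat in orange. The orange lines of SLC31A1 lie above the blue lines of the same medium at each hour, while those of SLC7A5 lie below.

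Over the 22 group means the carriers with the widest range in each class were SLC6A15 (amino acids), SLC4A11 (ions), SLC16A3 (other) and SLC37A3 (sugars). As a description over 22 points that share the step from uncultured to cultured cells, SLC6A15 followed SLC16A1 most closely (Pearson r = 0.95), then SLC27A4 (0.93) and SLC37A3 (0.92). SLC4A11 followed SLC41A2 (0.96), SLC17A5 and SLC16A1 (both 0.94), SLC16A3 followed SLC10A4 (0.90), SLC37A3 (0.89) and SLC6A15 (0.88), and SLC37A3 followed SLC16A1 (0.97), SLC27A4 (0.96) and SLC20A2 (0.93). At the other end, 11 of the 90 carriers were called in none of 13 comparisons, and these were SLC41A3, SLC35A4, SLC39A3, SLC39A6, SLC29A3, SLC4A9, SLC7A4, SLC24A5, SLC16A13, SLC38A3 and SLC29A1. The share of all probe sets called in none of them was not taken, so this count is not set against other genes.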

How the data were processed

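The members and the gene lists were chosen with earlier results of these data known. The log2 values were used as the authors deposited them; the submitters' processing notes list MAS5 without its version or what it did, and the log base was taken from the values (-5.232 to 13.51, median 4.17 on every array). Sorted values differed between arrays by at most 0.0615, so the arrays share nearly 1 distribution. Values were floored at 1.613 (the 20th percentile). The 22060 probe sets above the array median on all 3 arrays of a group were fitted with 22 group means in limma 3.58.1 (R 4.3.3, statmod 1.5.0; trended, robust variances, 44 residual degrees of freedom) and adjusted by Benjamini-Hochberg. Tests were two-sided. The fit was tested on simulated data with noise independent between arrays. Such data hold no deviations shared by same-numbered arrays, so they cannot show the effect of these on the calls. The brightest probe set stood for a gene; 89 of 90 symbols matched RefSeq. The number of arrays limits the precision.

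Named genes were, per substrate class, up to 3 rises and 3 falls of the culture, control time, oleate and control line comparisons with the same sign in every part. To these were added up to 4 and 4 of other comparisons, the 3 highest means per class and a fixed list. Replicate numbers were not a block: same-numbered arrays deviated together in every pair in the confluence (r 0.195 to 0.293) and first 12 h (0.177 to 0.365) comparisons. There the replicate block changed no call and the blocks by series added SLC43A2 at confluence. For time in control and in oleate the mean r was 0.132 and 0.142. The replicate, random and per-series blocks gave 15, 17 and 20 calls in place of 13 in control. In oleate they gave 20, 21 and 24 in place of 18. Alternatives were another floor, filter, variance model, array weights, blocks, probe set averages, fits on the compared groups, and each array left out.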

Additional observations from a re-analysis of the deposited data

Results flagged for a closer look

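For 2 ion carriers an effect differed between the lines by a test of the difference itself, fat minus lean, with limma's adjustment over all probe sets. For the change from uncultured cells to 0 h these were 2 of the 90 carriers, against 3.63% of all probe sets. Carriers were thus not called more often than probe sets in general. For SLC12A4, the potassium and chloride carrier, the change from uncultured cells to 0 h was lower in the fat line by -0.78 ± 0.21 (SE, adjusted p = 0.019). Its lean arrays at 0 h were at 7.35, 7.27 and 7.16 and its fat arrays at 6.30, 6.59 and 6.72, all below the lean ones. For SLC30A9, a zinc carrier of the exporter family, the same difference was -0.86 ± 0.19 (adjusted p = 0.00461), with lean arrays at 0 h of 6.51, 6.47 and 6.74 and fat arrays of 6.11, 5.96 and 6.20, again without overlap. Its means at 0 h were 6.57 (lean) and 6.09 (fat), a smaller gap than the -0.86. The line difference in uncultured cells enters that value as well.

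The change from -12 to 0 h also differed between lines for both, by -0.73 ± 0.21 (adjusted p = 0.0354) for SLC12A4 and by -0.71 ± 0.19 (adjusted p = 0.0255) for SLC30A9. In that comparison the fat line crosses from 1 style of array name to the other and the lean line does not, so line and name style cannot be told apart. No other of the 90 carriers was called in that comparison, against 2.71% of all probe sets, again not a larger share. Both pairs of values share the 0 h arrays.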

How the results depend on the processing

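Of the calls, 57 of 62 for culture, 31 of 38 for oleate, 6 of 13 and 5 of 18 for time in control and oleate, and 7 of 17 and 7 of 13 for line in control and oleate held under every setting other than leaving out an array. Leaving out 1 array gave 58 to 62 called carriers for culture, 1 to 4 for lean confluence, 6 to 17 for time in control, 12 to 19 for time in oleate, 1 to 2 for the first 12 h, 37 to 40 for oleate, 0 to 2 with the style shift taken off, 0 for the change of the oleate effect with time, 0 to 1 for its line difference, 2 to 4 for line in uncultured cells, 9 to 17 in control, 11 to 15 in oleate and 75 to 79 for any difference.

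With the mean of all probe sets of a gene, SLC1A4 turned to 0.19 for oleate and SLC44A1 to 0.08 for line in control, confluence gave 4 and the style-corrected oleate count 0. With all probe sets tested, time in control gave 7, the first 12 h 1 and line in control 11. Array weights gave 23 and 28 for time in control and oleate, 3 and 5 for the oleate effect's change with time and line difference, 2 with the style shift taken off, 1 for line in uncultured cells and 20 for line in oleate. With the compared groups alone, confluence gave 0, time in oleate 6, the first 12 h 1, line in uncultured cells 0 and the style-corrected count 2. Without the trend and robust steps that count was 2, and at a mean above 6 line in uncultured cells gave 1.

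The replicate block gave 1 for the oleate effect's change with time, 2 for its line difference and 2 with the style shift taken off. The replicate block per series, added after the data were seen, gave 20 for time in control, 1, 4 and 2 for the same 3 and 6 for line in uncultured cells. The random block by line, replicate number and name style gave 7 for line in control, 7 in oleate and 2 with the style shift taken off. In other comparisons the block counts stayed within 1.5 times. The cause of these shifts was not tested.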
